A study of Mus musculus with 14 samples.

Results

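Sto organoids were compared with SI organoids that had been grown in the same intestinal medium. The comparison used 4 of the 14 arrays of the series, namely Sto organoids in SI medium 1 and 2 and SI organoids in SI medium 2 and 3. It covered 18820 genes with 1 probe set each, that with the highest mean over the 14 arrays. Organoids are epithelial cultures in a gel, here of stomach glands or small intestinal crypts. The labels describe clonal cultures, expanded over several passages, of the genotype Cdx2-/fl / Lgr5-EGFP in both groups, which lacks 1 Cdx2 allele. The study's text instead speaks of wild-type glands and crypts as the source of organoid arrays in both media, so clonality and genotype are given here as labelled. Neither group is described as exposed to 4-hydroxytamoxifen, which removes the floxed allele. The animals were males and females between 3 and 10 months old. SI medium (ENR) holds EGF, Noggin and R-spondin, and Sto medium (ENRWfg) adds Wnt, Fgf and gastrin. The labels give differentiation as the aim of SI medium, which is also a growth medium of SI organoids. The study reports that growth of stomach cultures depended on Wnt, Fgf and gastrin together, and it used SI medium to differentiate Sto organoids. A difference by origin therefore cannot be told apart from a response of Sto organoids to the lack of these factors. RNA came from full organoids without a sort, so a gene that is lower because fewer cells of a type are present cannot be told apart from one with less RNA per cell. How many clones or animals stood behind the arrays is not known, and p-values then measure only the spread between these samples, which may be technical.

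Levels of single genes are given on the log2 scale throughout, per array. Another array, whose label reads SI organoids SI med 1, was left out of the SI group because its measured profile goes against that label. Cdx2, the homeobox factor that specifies the intestine, had a level of 4.72 and 5.57 in the Sto organoids, and of 9.92 and 9.67 in SI organoids 2 and 3. In the library labelled SI organoids 1 it was at 5.52, within the range of the Sto organoids. The Cdx2 level was one reason for leaving this library out, so no p-value is given for Cdx2, though it stays in the counts over all genes. Across the 18820 genes the log2 values of this library had r = 0.983 with Sto organoids kept in Sto medium, 0.950 and 0.959 with both Sto arrays of the comparison, and 0.928 and 0.904 with SI organoids 2 and 3. It also had r = 0.964 with SI organoids kept in Sto medium and 0.957 to 0.964 with control SI SCs (sorted stem cells). With control Sto SCs it had r = 0.980 and 0.981, and with both arrays of Cdx2null SI SCs 0.982. Within each kind of sample (organoids in SI medium, organoids in Sto medium, sorted control SCs) r was higher with stomach than with intestinal arrays. Across kinds r did not separate them, as SI organoids kept in Sto medium had a higher r than Sto organoids in SI medium. These correlations are a description over genes of arrays that were processed in one series. Since the choice used measured values, the counts of the gene lists are also given with this library put back into the SI group. The p-values of genes at stomach levels in this library are not independent of that choice. With it put back, the adjusted p by limma was 0.364 for Sox2, 0.366 for Cldn18 and 0.418 for Sis, but 0.009 for Gkn2. By the transcript of the inactive X and by Y-linked genes, all 5 arrays in SI medium read as female.

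Pyloric glands of the stomach renew surface mucous (pit) cells, gland mucous cells and endocrine cells, whereas crypts of the small intestine renew absorptive enterocytes, goblet, Paneth, enteroendocrine and tuft cells. In both organs Lgr5, a receptor for R-spondin and a Wnt target gene, marks the cycling stem cells. Paneth cells make Wnt for the crypt, and gastric cultures depend on Wnt that is added to their medium. Cdx2 and its relative Cdx1 hold intestinal identity, and Sox2 is their counterpart in the foregut.

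Over all genes, 2609 of 18820 (13.9%) were called, that is, they had an adjusted p under 0.05 (limma) and differed at least 2-fold. Of these, 1425 (7.57%) were higher and 1184 (6.29%), Cdx2 included, lower in Sto organoids, with a median difference of 0.08 over all genes tested. The median fold was 3.19 among the genes that were higher and 3.83 among those that were lower, and 52 and 106 of them differed by at least 32-fold. In the group with the lower level, 564 (39.6%) of the higher and 673 (56.8%) of the lower genes lay under 5.74, the median of all genes, where background signal compresses folds. A level under 5.74 is called low, and it can be background. Of the 18820 genes, 6486 lay higher and 4318 lower in Sto organoids without overlap of the groups. With 2 arrays a group, absence of overlap is thus common and is given as a description. With the library labelled SI organoids 1 put back, 266 genes (1.41%) were called, of which 99 (0.526%) were higher and 167 (0.887%) lower. That library lay nearer to the Sto organoids for 859 (60.3%) of the higher genes and for 684 (57.8%) of the lower ones, and nearer to SI organoids 2 and 3 for the rest. SI organoids 3 had been exported in another form than the other 3 arrays, and without it 1188 genes were called, 543 of them higher and 645 lower.

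**Figure D1:**
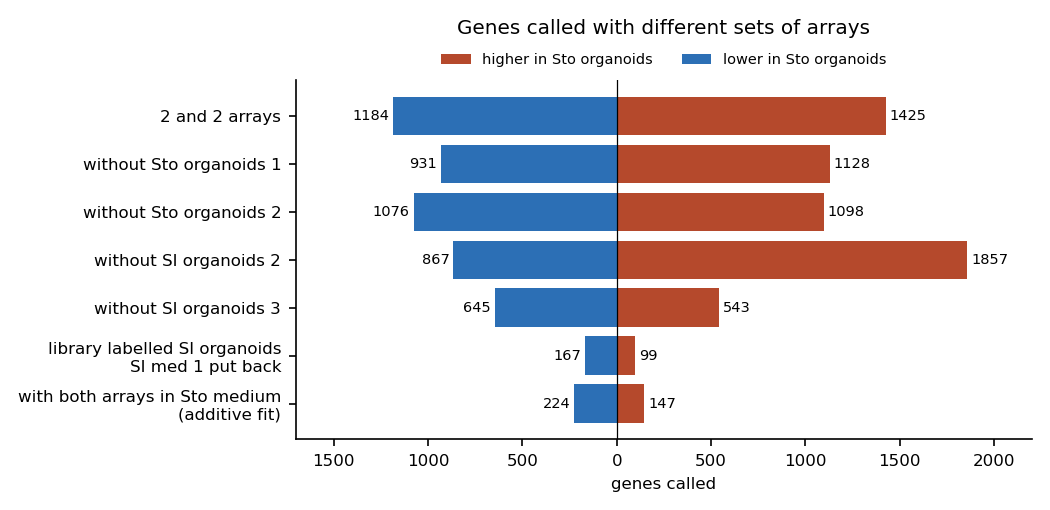
Genes called (adjusted p under 0.05 by limma and at least 2-fold) with different sets of arrays. Bars run to the right for genes higher and to the left for genes lower in Sto organoids. The 4 arrays gave 1425 and 1184 genes, and with the library labelled SI organoids 1 put back 99 and 167 were called.

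Genes of gastric pit cells had the highest median difference of the 32 lists. Of 17 pit cell genes, 15 were higher and 0 lower, with a median difference of 5.31 on the log2 scale. Gkn2, a secreted gastrokine of the surface epithelium, was at 12.40 and 12.46 in Sto organoids, against 3.68 and 3.60 in SI organoids. This was 443-fold (8.79 on the log2 scale, SE 0.18, adjusted p = 5.29e-05 by limma), and the groups did not overlap. Muc5ac, the gel-forming mucin of the gastric surface, was at 12.28 and 12.03 in Sto organoids and at 3.47 and 3.69 in SI organoids, 381-fold apart. Gkn1, the other gastrokine, stood at 12.47 and 12.45 in Sto organoids, against 4.91 and 4.10 in SI organoids (248-fold). For all 3 genes the levels in SI organoids were low, and the Sto arrays lay close to each other. The same genes were low in the single array of Sto organoids kept in Sto medium, with Gkn2 at 3.87, Muc5ac at 3.59 and Gkn1 at 5.21. The library labelled SI organoids 1 had them at 4.55, 3.88 and 6.74, and all 3 were called with it put back.

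Cldn18 and Muc1 were high in stomach cultures of either medium. Cldn18, the claudin of gastric tight junctions, was at 12.94 and 12.88 in Sto organoids, against 5.42 and 3.94 in SI organoids (299-fold, 8.23 on the log2 scale, SE 0.47, adjusted p = 0.000232 by limma). It stood at 12.19 in Sto organoids kept in Sto medium and was 12.23 on the array labelled SI organoids 1. Muc1, a membrane mucin, behaved in the same way, with 11.996 and 12.12 in Sto organoids and 4.62 and 4.11 in SI organoids (207-fold), 11.77 in Sto organoids kept in Sto medium and 11.60 in that library. The trefoil peptide Tff1 was at 12.95 and 12.93 in Sto organoids, and at 7.53 and 5.42 in SI organoids (88.4-fold). The surface antigen Psca was at 12.74 and 12.39 in Sto organoids, against 7.49 and 4.12 in SI organoids (108-fold). For Tff1 and Psca the 2 arrays of SI organoids lay far from each other, array 2 higher, though both were below every array of Sto organoids. Of the 17 pit cell genes, 3 were called with the library labelled SI organoids 1 put back, namely Gkn2, Muc5ac and Gkn1.

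The remaining genes among the 12 with the largest rises were Chil4, Mucl3, Atp6v0d2, Aldh3a1 and Slc26a9. Chil4, a chitinase-like secreted protein, was at 10.64 and 12.23 in Sto organoids, against 2.78 and 2.70 in SI organoids (414-fold). The mucin-like gene Mucl3 was at 12.78 and 12.68 in Sto organoids and at 7.37 and 4.30 in SI organoids (119-fold). Atp6v0d2, a subunit of the vacuolar proton pump, was at 9.68 and 9.80 in Sto organoids and at 3.06 and 2.81 in SI organoids (112-fold). All 12 kept their call when any 1 of the 4 arrays was left out, and Atp6v0d2 was also called with the library labelled SI organoids 1 put back. The aldehyde dehydrogenase Aldh3a1 was 108-fold higher, and Slc26a9, a chloride transporter of gastric surface and parietal cells, 85.0-fold.

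**Figure D2:**
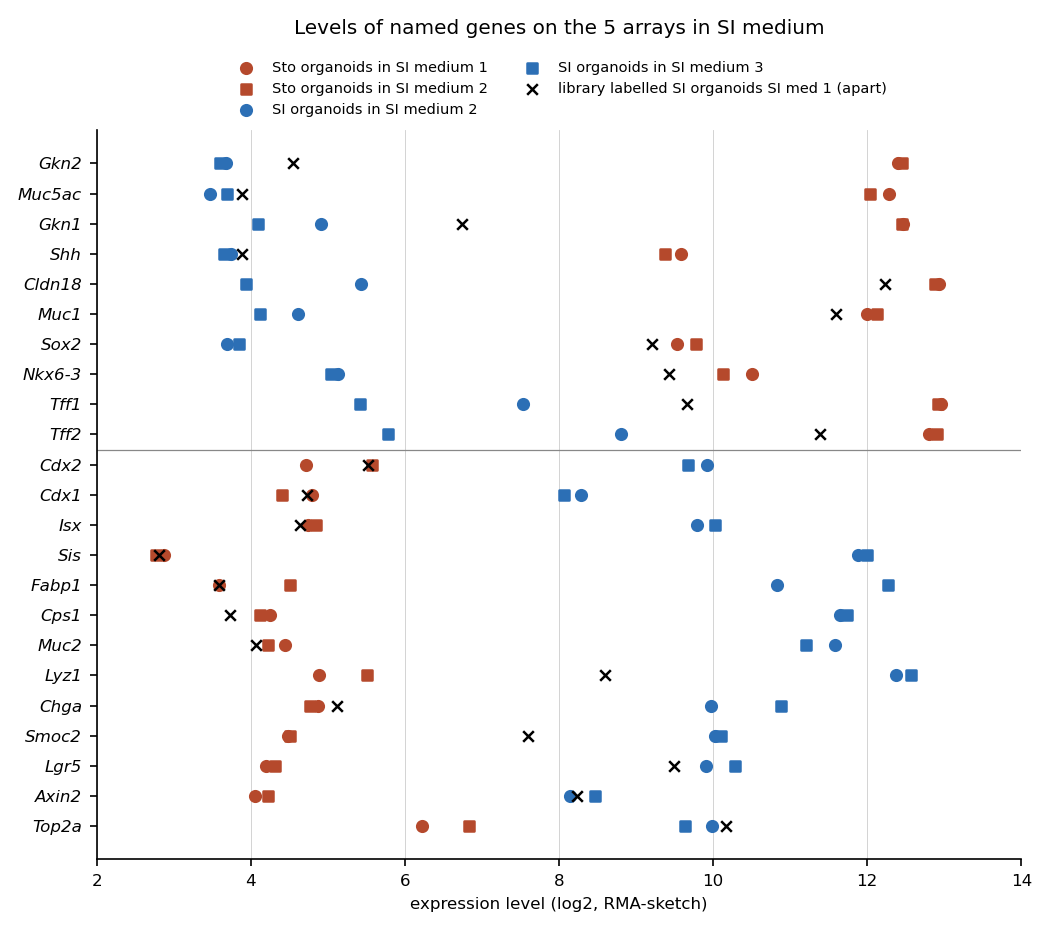
Expression level (log2) of named genes on the 5 arrays in SI medium, 1 mark per array, with genes higher in Sto organoids above the line and those lower below it. The library labelled SI organoids 1 (cross) lies with the Sto organoids for Cldn18, Sox2, Cdx2 and Sis. It lies with SI organoids 2 and 3 for Gkn2, Muc5ac, Shh, Lgr5 and Top2a. Sto organoids kept in Sto medium (1 array, not drawn) had Gkn2 at 3.87, Muc5ac at 3.59, Shh at 3.89 and Lgr5 at 9.29.

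Of 17 measured transcription factors of foregut and stomach, 8 were higher and 0 lower in Sto organoids (median 0.98). Sox2 was at 9.54 and 9.78 in Sto organoids, against 3.69 and 3.85 in SI organoids (59.4-fold, 5.89 on the log2 scale, SE 0.20, adjusted p = 6.19e-05 by limma). Nkx6-3, a homeobox factor of the pyloric antrum, was at 10.50 and 10.13 in Sto organoids, against 5.13 and 5.04 in SI organoids (37.6-fold). The groups did not overlap for either factor. Sox2 was as high in Sto organoids kept in Sto medium (9.87), whereas Nkx6-3 was at 4.93 there. Sox21, a relative of Sox2, was 17.2-fold higher, the forkhead factors Foxq1 and Foxa1 7.41-fold and 5.19-fold, and the homeobox factor Meis1 5.53-fold. None of the 17 was called with the library labelled SI organoids 1 put back, in which Sox2 was at 9.21 and Nkx6-3 at 9.43.

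Among 10 genes of neck and pyloric gland mucous cells, 8 were higher and 0 lower (median 3.73), and this count ran between 4 and 7 when 1 array was left out. Wfdc2, a secreted protease inhibitor of the whey acidic protein family, was at 11.40 and 11.39 in Sto organoids, against 7.22 and 4.42 in SI organoids (47.8-fold). Tff2, the trefoil peptide of neck cells, was at 12.80 and 12.90 in Sto organoids, and at 8.80 and 5.78 in SI organoids (47.3-fold, 5.56 on the log2 scale, SE 0.89, adjusted p = 0.011 by limma). The chemokine Cxcl17 (32.8-fold) and lactoferrin, Ltf (13.1-fold), were higher too. The gland mucin Muc6 differed between the Sto arrays, at 5.82 and 8.15, against 4.41 and 3.91 in SI organoids. Its adjusted p was 0.047, and the call was lost without either array of SI organoids. None of the 10 genes was called with the library labelled SI organoids 1 put back. Muc6 stood at 10.92 in Sto organoids kept in Sto medium and was 11.16 on the array labelled SI organoids 1, above both Sto organoids in SI medium.

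Genes of enzyme-secreting gastric cells went both ways, and most of those of acid-secreting cells were not called. Of 12 chief cell genes 2 were higher and 3 lower (median -0.06), with 1 lower without either array of SI organoids. Of 15 parietal cell genes 4 were higher and 0 lower (median 0.28), with 2 higher without either array of SI organoids. Putting back the library labelled SI organoids 1 left 0 calls in both lists. The milk-clotting protease chymosin, Cym, was at 11.52 and 11.51 in Sto organoids, against 7.72 and 7.39 in SI organoids (15.5-fold). The small GTPase Rab3d of secretory granules was 3.73-fold higher. The largest change in the chief cell list was that of Rnase1, at 3.72 and 4.18 in Sto organoids, against 9.06 and 9.63 in SI organoids (42.1-fold lower). Rnase1 was also at 4.31 in Sto organoids and 8.18 in SI organoids kept in Sto medium (1 array each), so here it was high in intestinal cultures. Bhlha15 was 3.02-fold lower. The parietal cell genes that were higher were Slc26a9, Car2 (12.7-fold), Kcnj15 (9.12-fold) and Slc4a2 (2.05-fold). Pgc, the pepsinogen of the pylorus, was at 6.05 and 7.26 in Sto organoids and at 8.10 and 8.60 in SI organoids, with an adjusted p of 0.0447 that did not survive leaving out Sto organoids 1 or either array of SI organoids. The proton pump subunit Atp4a was between 4.58 and 5.48 on the 4 arrays, the intrinsic factor gene Cblif between 4.36 and 4.73, and the hormone gene Gast between 4.78 and 5.89. These 3 were not called, and neither were Atp4b and Col11a2. Over the 12 gastric markers that the study names, 6 were higher and 1 (Pgc) lower, and 2 (Muc5ac and Shh) were called with the library labelled SI organoids 1 put back. Since the study reported part of these markers as changed on these samples, this count is not independent evidence.

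Of 17 measured transcription factors of the intestine other than Cdx2, 8 were lower in Sto organoids and 1 was higher (median -0.49), or 3 higher without SI organoids 2. Cdx1 was at 4.79 and 4.40 in Sto organoids, against 8.28 and 8.07 in SI organoids (11.9-fold, -3.58 on the log2 scale, SE 0.22, adjusted p = 0.000331 by limma). Isx, a homeobox factor that restrains vitamin A uptake in enterocytes, was at 4.74 and 4.85 in Sto organoids, against 9.79 and 10.03 in SI organoids (34.7-fold). The vitamin D receptor Vdr was at 6.33 and 6.45 in Sto organoids, and at 11.48 and 11.40 in SI organoids (33.2-fold). The groups did not overlap for these genes, and the library labelled SI organoids 1 had them at 4.73, 4.64 and 6.74, with the Sto organoids. Nr5a2, an orphan receptor of crypt and pancreas, was 26.8-fold and Creb3l3, a lipid-responsive factor of enterocytes and liver, 12.7-fold lower. Klf4, a factor of postmitotic epithelial cells, was the exception, at 10.68 and 10.21 in Sto organoids against 7.89 and 6.94 in SI organoids (8.18-fold higher). It was at 7.54 in the library labelled SI organoids 1 and was the only one of the 17 called with that library put back.

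Digestive enzymes of the enterocyte surface held the largest fall. Of 17 hydrolases, 13 were lower and 0 higher in Sto organoids (median -4.49). Sis, the sucrase-isomaltase that splits dietary sugars, was at 2.88 and 2.77 in Sto organoids, against 11.88 and 12.002 in SI organoids (556-fold, -9.12 on the log2 scale, SE 0.19, adjusted p = 5.29e-05 by limma). Mgam, the maltase-glucoamylase, was at 4.32 and 4.15 in Sto organoids, and at 11.81 and 11.55 in SI organoids (174-fold). Both were low on each Sto array and high on each SI array. In SI organoids kept in Sto medium Mgam was still at 10.74, but Sis was at 5.04 (1 array). The intestinal phosphatase Akp3 was 74.9-fold and the aminopeptidase Enpep 62.8-fold lower. Alpi, the other intestinal alkaline phosphatase, was at 6.07 and 10.51 in Sto organoids, against 12.32 and 11.85 in SI organoids, and the distance between the Sto arrays left it uncalled (adjusted p = 0.11). Lactase, Lct, was at 4.27 and 3.96 in Sto organoids and at 4.64 and 6.23 in SI organoids (-1.32, SE 0.50, adjusted p = 0.141), so it was low on each array but SI organoids 3. Of the 17 hydrolases, 0 were called with the library labelled SI organoids 1 put back.

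Promoters of Sis and Lct are shown because both genes are textbook targets of Cdx2, and that of Fabp1, described next, because a stricter form of the Cdx site occurred in it (it was chosen after its sequence and values were seen). They are the 250 bases before the RefSeq start site in GRCm38.p6, written 5′ to 3′ on the coding strand. Neither the Sis nor the Lct sequence shown held CCATAAA on either strand. Capitals mark the shorter ATAAA and its reverse complement TTTAT in Sis and Lct, and CCATAAA in Fabp1. Sis lies at chr3:72967864-72968113 (minus strand), Lct at chr1:128328319-128328568 (minus strand) and Fabp1 at chr6:71199629-71199878 (plus strand).
Sis: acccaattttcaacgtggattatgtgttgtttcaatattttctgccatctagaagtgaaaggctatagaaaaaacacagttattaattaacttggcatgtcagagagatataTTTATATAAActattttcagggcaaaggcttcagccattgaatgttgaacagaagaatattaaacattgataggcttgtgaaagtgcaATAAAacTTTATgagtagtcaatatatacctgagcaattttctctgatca
Lct: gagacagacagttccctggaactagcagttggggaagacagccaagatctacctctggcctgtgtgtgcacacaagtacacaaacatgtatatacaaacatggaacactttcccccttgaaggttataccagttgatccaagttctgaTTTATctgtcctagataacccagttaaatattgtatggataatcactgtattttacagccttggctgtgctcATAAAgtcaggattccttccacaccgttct
Fabp1: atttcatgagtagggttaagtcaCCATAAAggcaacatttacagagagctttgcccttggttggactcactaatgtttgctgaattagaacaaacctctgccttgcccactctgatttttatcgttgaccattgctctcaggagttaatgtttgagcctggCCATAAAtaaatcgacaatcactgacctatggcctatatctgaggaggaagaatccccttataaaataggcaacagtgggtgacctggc
The Sis promoter held ATAAA at -133 and -50 and TTTAT at -138 and -43, counted from the start site, so that the matches at -50 and -43 face each other with 2 bases between them. Lct held TTTAT at -102 and ATAAA at -30, and Fabp1 CCATAAA at -227 and -89. Both strands were searched over 250 bases before and 50 after each start. CCATAAA, which contains ATAAA, occurred in 2.99% of the promoters of genes that were lower, 1.72% of those that were higher and 2.28% of those of all genes tested. ATAAA on either strand occurred in 32.4%, 26.7% and 33.1% of them, and it can be part of a TATA box. The shares of the genes that were lower were close to those of all genes tested, and a match is a sequence description, not a binding site.

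Lipid handling and nutrient uptake followed the hydrolases. Of 20 genes of lipid absorption, 16 were lower and 0 higher (median -3.71). Fabp1, the fatty acid-binding protein of enterocytes, was at 3.58 and 4.51 in Sto organoids, against 10.83 and 12.27 in SI organoids (181-fold, -7.50 on the log2 scale, SE 0.53, adjusted p = 0.000521 by limma). The apolipoprotein Apoa1 was at 4.63 and 4.21 in Sto organoids, against 11.82 and 12.03 in SI organoids (181-fold). Apoa4 was 155-fold, the sterol transporter Abcg5 55.3-fold and Mttp, which loads lipid onto apolipoprotein B, 47.7-fold lower. No array of Sto organoids reached one of SI organoids for these genes. Fabp1 was also low in SI organoids kept in Sto medium (3.76, 1 array), where Apoa1 was at 7.46 and Mttp at 7.74. Of 20 transporters 13 were lower and 0 higher (median -3.26). The glucose transporter Slc5a1 was at 4.56 and 3.87 in Sto organoids, and at 11.47 and 11.50 in SI organoids (154-fold). The neutral amino acid carrier Slc6a19 was 72.6-fold, the chloride exchanger Slc26a3 68.4-fold, the sugar carrier Slc2a2 36.8-fold and the peptide carrier Slc15a1 27.7-fold lower. Neither list had a called member with the library labelled SI organoids 1 put back, and when 1 array was left out at least 11 lipid genes and 10 transporters were lower.

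Structural genes of the brush border were split. Of 20 genes, 9 were lower and 2 higher (median -0.98), or 1 higher without Sto organoids 1, Sto organoids 2 or SI organoids 3. Muc13, a membrane mucin, was at 3.59 and 4.17 in Sto organoids, against 11.13 and 11.34 in SI organoids (164-fold). Cdh17, the cadherin of intestinal epithelium, was at 3.64 and 5.28 in Sto organoids, and at 11.54 and 11.17 in SI organoids (119-fold, -6.89 on the log2 scale, SE 0.52, adjusted p = 0.000669 by limma). The unconventional myosin Myo7b of the microvillus tip links was 72.2-fold lower. In contrast, the actin bundler villin, Vil1, was at 10.46 and 10.67 in Sto organoids, and at 10.91 and 10.66 in SI organoids (-0.22, SE 0.21, adjusted p = 0.573), so the groups overlapped. Keratin 20, Krt20, was at 11.54 and 11.43 in Sto organoids, against 8.58 and 8.82 in SI organoids (6.87-fold higher). None of the 20 was called with the library labelled SI organoids 1 put back.

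**Figure D3:**
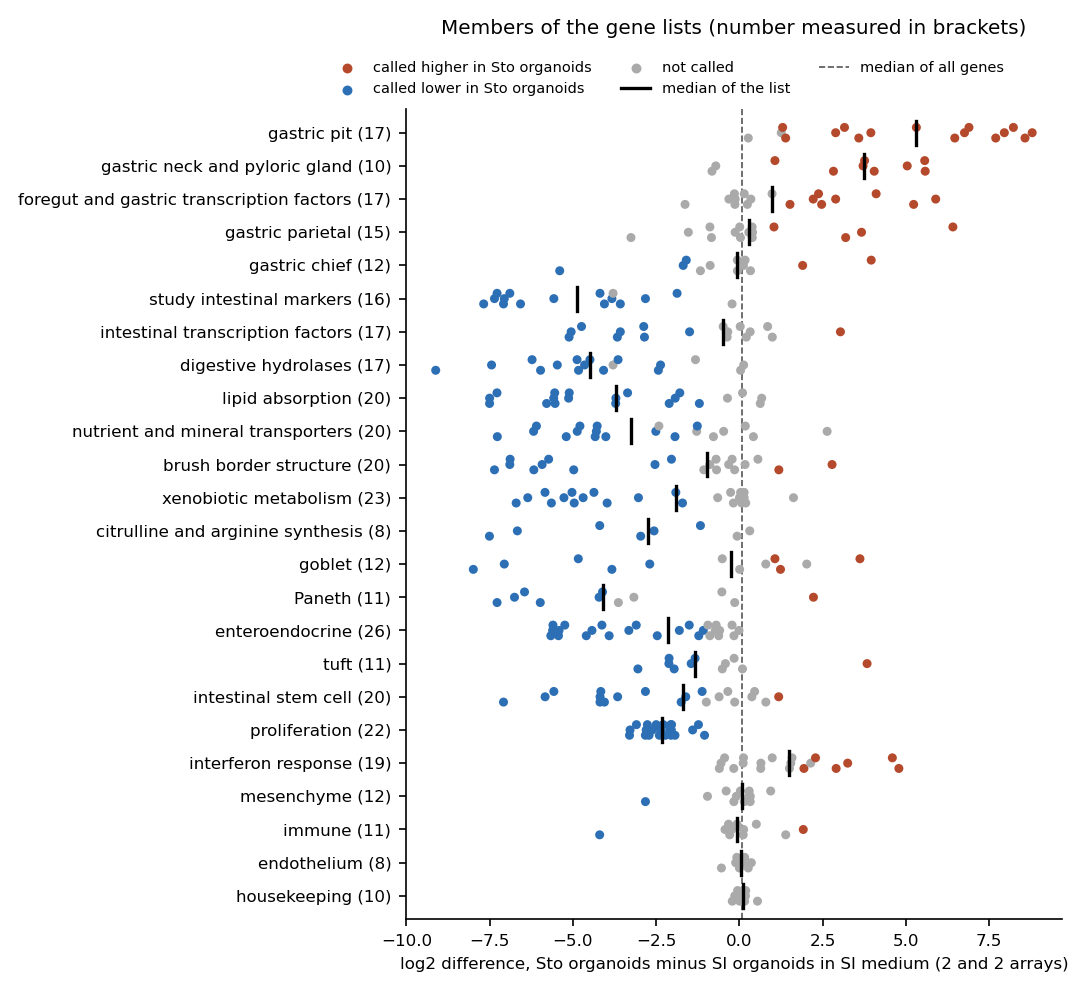
Log2 difference, Sto organoids minus SI organoids in SI medium, for each measured member of 24 gene lists except Cdx2, 1 point per gene, with the median of the list as a bar and that of all genes (0.08) as a dashed line. Pit cell genes reach 8.79 (Gkn2) and hydrolases -9.12 (Sis), and the lists of endothelium and housekeeping genes hold 0 called members.

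Metabolic genes of the enterocyte were lower as well. Of 8 measured genes of citrulline and arginine synthesis, 6 were lower and 0 higher (median -2.76). Cps1, which makes carbamoyl phosphate, was at 4.25 and 4.12 in Sto organoids, against 11.64 and 11.74 in SI organoids (182-fold, -7.51 on the log2 scale, SE 0.19, adjusted p = 5.29e-05 by limma). Otc, which joins it to ornithine to form citrulline, was at 2.64 and 2.83 in Sto organoids, and at 9.33 and 9.48 in SI organoids (102-fold). Nags, which makes the activator of Cps1, was 18.3-fold and Oat, which makes ornithine, 7.81-fold lower. Of the 4 enzymes, all but Oat were low in Sto organoids. In SI organoids kept in Sto medium Cps1 was at 10.46 but Otc at 3.61 (1 array). Of 23 genes of xenobiotic metabolism, 13 were lower and 0 higher (median -1.91), among them the cytochrome P450 genes Cyp4f14 (104-fold) and Cyp3a11 (38.6-fold) and the carboxylesterase Ces2e (81.9-fold). Members of these families share sequence, so a probe set may read a close relative. Both lists had 0 called members with the library labelled SI organoids 1 put back. When 1 array was left out, at least 4 genes of the first list and 8 of the second were lower. Other enzymes and receptors among the 12 largest falls were the diamine oxidase Aoc1 (356-fold), the alcohol dehydrogenase Adh6a (185-fold) and the adhesion receptor Adgrg7 (205-fold).

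Of 12 goblet cell genes 5 were lower and 3 higher (median -0.25). Without Sto organoids 1, Sto organoids 2 or SI organoids 3 only 1 was higher, and 0 of the 12 were called with the library labelled SI organoids 1 put back. Zg16, a lectin of goblet cell granules, was at 3.81 and 3.58 in Sto organoids, against 11.79 and 11.58 in SI organoids (254-fold). Muc2, the mucin of intestinal mucus, was at 4.45 and 4.22 in Sto organoids, and at 11.58 and 11.21 in SI organoids (134-fold, -7.06 on the log2 scale, SE 0.22, adjusted p = 6.19e-05 by limma). Atoh1, the factor that directs crypt cells to secretory fates, was at 4.15 and 3.73 in Sto organoids and at 8.96 and 8.59 in SI organoids (28.6-fold). These 3 genes were low in Sto organoids. The trefoil peptide Tff3 was lower without being low, at 8.09 and 8.06 in Sto organoids, against 12.09 and 11.73 in SI organoids (14.2-fold). The protease inhibitor Spink4 was at 8.82 and 9.37 in Sto organoids, against 11.93 and 11.65 in SI organoids (6.47-fold). In Sto organoids kept in Sto medium Tff3 was at 4.67 (1 array). The 3 goblet cell genes that were higher were Bcas1 (12.3-fold), Galnt12 (2.35-fold) and Spdef (2.09-fold). Clca1 was at 12.91 and 13.07 in Sto organoids, against 12.01 and 9.93 in SI organoids. It was not called (adjusted p = 0.0854 by limma). Outside this list, the chloride channel accessory gene Clca3b was 233-fold lower, at 4.01 and 4.80 in Sto organoids, and 6.86 in Sto organoids kept in Sto medium.

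Of 11 measured Paneth cell genes, 6 were lower and 1 higher (median -4.11). Lysozyme, Lyz1, was at 4.88 and 5.50 in Sto organoids, against 12.37 and 12.57 in SI organoids (155-fold, -7.28 on the log2 scale, SE 0.26, adjusted p = 6.19e-05 by limma). The matrix protease Mmp7, which activates defensins, was at 4.02 and 3.64 in Sto organoids, and at 10.81 and 10.36 in SI organoids (108-fold). The lectin Itln1 was 87.6-fold lower, the ribonuclease Ang4 18.6-fold and the Paneth cell defensin Defa24 63.1-fold. Of these, Lyz1 and Mmp7 were not low in Sto organoids kept in Sto medium (9.89 and 8.29, 1 array), nor in the library labelled SI organoids 1 (8.59 and 6.53). Pla2g2a, a secreted phospholipase, was at 3.84 and 3.60 in Sto organoids, and at 7.86 and 7.8 in SI organoids (17.3-fold), but at 10.86 in Sto organoids kept in Sto medium. It was the 1 Paneth cell gene called with the library labelled SI organoids 1 put back. Of 7 listed Paneth cell genes with no probe set of 1 gene, 6 were defensins.

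Of 26 enteroendocrine genes, 17 were lower and 0 higher (median -2.14). Chromogranin A, Chga, of hormone granules was at 4.87 and 4.77 in Sto organoids, against 9.97 and 10.89 in SI organoids (48.8-fold, -5.61 on the log2 scale, SE 0.32, adjusted p = 0.000241 by limma). The hormone gene Gip was at 4.86 and 4.66 in Sto organoids, against 10.19 and 9.82 in SI organoids (37.9-fold). Tac1, Cck and Gcg, which encode further gut hormones or neuropeptides, were 50.7-fold, 43.2-fold and 42.7-fold lower. All 5 lay at or under 5.12 in the library labelled SI organoids 1 and in Sto organoids kept in Sto medium too, and 0 of the 26 were called with that library put back. Of 11 tuft cell genes 6 were lower and 1 higher (median -1.33), and 1 of them, Dclk1, was called with that library put back. The kinase-like tuft marker Dclk1 was at 5.02 and 5.28 in Sto organoids, against 7.0 and 7.53 in SI organoids (4.32-fold), and the taste channel Trpm5 was 3.89-fold lower. Avil, an actin regulator of tuft cells, went the other way and was 14.2-fold higher, at 10.26 and 10.39 in Sto organoids against 6.33 and 6.65 in SI organoids.

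**Figure D4:**
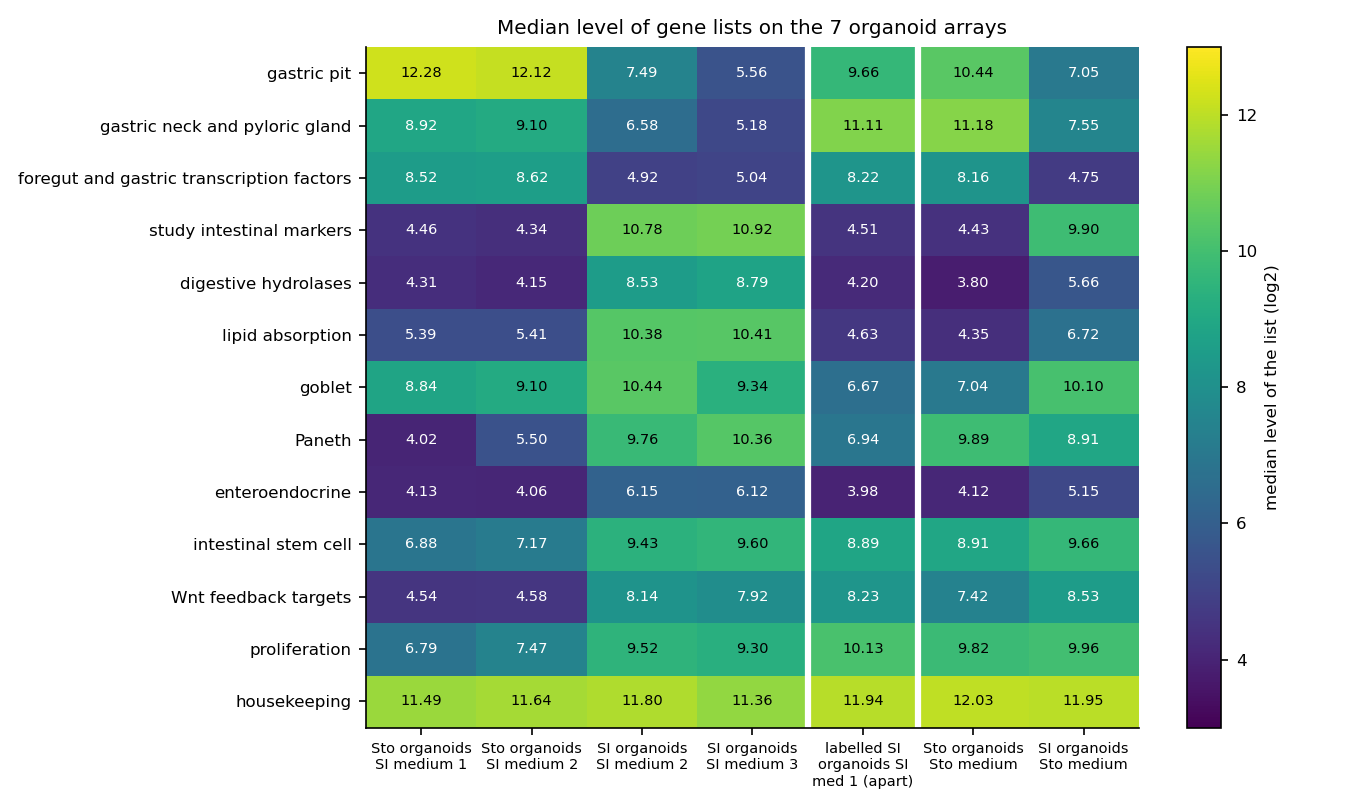
Median level (log2) of 13 gene lists, without Cdx2, on the 7 organoid arrays, 1 column per array. Both Sto arrays in SI medium hold pit cell genes at 12.28 and 12.12. The median levels of the proliferation and Wnt feedback lists are lower on those 2 arrays than on the other 5. Per gene, the median difference of the Wnt feedback list is -0.36, and 10 of its 15 genes were not called.

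Cell cycle genes and most of the listed stem cell genes were lower in Sto organoids. Of the genes that were lower, the library labelled SI organoids 1 lay nearer to the SI organoids for 7 of 12 stem cell genes, 5 of 5 Wnt feedback targets and 22 of 22 proliferation genes. Sto organoids kept in Sto medium (1 array) did not have the low levels of Sto organoids in SI medium either. The proliferation list had a median level of 9.82 there and of 10.13 in that library, and the Wnt feedback list of 7.42 and 8.23. Lgr5 was at 4.20 and 4.32 in Sto organoids, against 9.90 and 10.28 in SI organoids (57.1-fold, -5.84 on the log2 scale, SE 0.22, adjusted p = 6.19e-05 by limma). It was at 9.49 in the library labelled SI organoids 1, and at 9.29 in Sto organoids and 9.95 in SI organoids grown in Sto medium (1 array each). Among the 4 kinds of organoid culture, Lgr5 was low in Sto organoids in SI medium alone. Of 20 genes of intestinal stem cells, 12 were lower and 1 higher (median -1.68), and 6 were lower with the library labelled SI organoids 1 put back. The 1 that was higher was Prom1, at 11.09 and 11.37 in Sto organoids, against 10.30 and 9.81 in SI organoids (2.26-fold). Bmi1, Cdk6 and Ephb3 also lay higher on both Sto arrays, but were not called. Olfm4, a secreted glycoprotein of crypt base cells, was at 3.82 and 4.11 in Sto organoids, and at 10.21 and 11.89 in SI organoids (136-fold). The matrix protein Smoc2 was 47.6-fold, the RNA-binding protein Msi1 18.2-fold, Cdca7, a cell division-associated chromatin factor, 16.6-fold and the transcriptional regulator Dach1 7.07-fold lower. In the library labelled SI organoids 1, Olfm4 (3.97), Msi1 (5.14) and Dach1 (3.497) were low. Olfm4 was at 3.69 in Sto organoids kept in Sto medium, so it was low in stomach cultures of either medium, unlike Lgr5.

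Of 15 feedback targets of Wnt signalling, 5 were lower and 0 higher (median -0.36), and 4 of them were called with the library labelled SI organoids 1 put back. Axin2, a brake on Wnt signalling that Wnt itself induces, was at 4.06 and 4.22 in Sto organoids, against 8.14 and 8.47 in SI organoids (17.9-fold). Ascl2, the stem cell factor, was at 3.98 and 4.81 in Sto organoids, and at 8.19 and 7.92 in SI organoids (12.6-fold). The ubiquitin ligase Rnf43, which removes Wnt receptors, was 3.36-fold lower. In Sto organoids kept in Sto medium Axin2 was at 7.37, Ascl2 at 8.70 and Rnf43 at 10.24, all above both Sto organoids in SI medium. All 22 measured proliferation genes were lower (median -2.33), and 12 of them with the library labelled SI organoids 1 put back. Top2a, the topoisomerase of dividing cells, was at 6.22 and 6.83 in Sto organoids, against 9.98 and 9.63 in SI organoids (9.74-fold, -3.28 on the log2 scale, SE 0.27, adjusted p = 0.00106 by limma). The proliferation antigen Mki67 was at 6.67 and 7.70 in Sto organoids and at 10.30 and 9.71 in SI organoids (7.08-fold). The count depended on the arrays used and fell most without either array of SI organoids, for a reason that was not tested. The difference of Mki67 ran between -3.34 and -2.31 leaving out 1 array, and that of Top2a between -3.59 and -2.98.

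Over the 16 intestinal markers other than Cdx2 that the study names, 14 were lower and 0 higher (median -4.88), and Vil1 and Alpi were not called. They include Reg4, a lectin of enteroendocrine and goblet cells (205-fold), and Clca4b (95.3-fold), a chloride channel accessory gene. Clca4a was 3.66-fold lower with an adjusted p of 0.0489, a call that was lost without Sto organoids 2 or either array of SI organoids. The study reported part of this list as changed on these samples, so the count is not independent evidence. With the library labelled SI organoids 1 put back 1 marker, Cdca7, was called.

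Further groups were less uniform. Shh, the hedgehog ligand of gastric epithelium, was at 9.59 and 9.37 in Sto organoids, against 3.75 and 3.65 in SI organoids (54.9-fold, 5.78 on the log2 scale, SE 0.19, adjusted p = 6.19e-05 by limma), and at 3.89 in Sto organoids kept in Sto medium. Its relative Dhh was 4.18-fold higher and the hedgehog transducer Smo 6.15-fold lower, and 8 of the 11 pathway genes were not called. Shh and Smo were also called with the library labelled SI organoids 1 put back. Of 13 claudins, 3 were higher and 4 lower, against 0 and 1 with that library put back, and 1 was higher without Sto organoids 1 or SI organoids 3. Among them was Cldn15, a cation pore of the intestine, at 4.47 and 4.10 in Sto organoids and at 11.21 and 10.44 in SI organoids (92.9-fold lower). Of 19 interferon response genes 6 were higher and 0 lower (median 1.5), but the SI organoids were split. Oas2, an antiviral RNA sensor, was at 10.06 and 10.26 in Sto organoids, and at 6.96 and 4.17 in SI organoids (24.1-fold), and the deubiquitinase Usp18 followed it (27.6-fold). With SI organoids 3 alone as the SI group 11 were higher, and with SI organoids 2 alone 5. Cholesterol synthesis moved with the same array, with 3 of 18 genes higher, 10 without SI organoids 2 and 0 without SI organoids 3. Among 12 genes of squamous epithelium 3 were higher, of which the envelope protein Ivl was at 10.39 and 11.08 in Sto organoids, against 5.70 and 3.45 in SI organoids (71.6-fold), and Sprr1a 11.1-fold higher. Of 11 dissociation stress genes 3 were higher and 0 lower, among them the phosphatase Dusp1 (3.34-fold), and 3 were lower without SI organoids 2. None of the interferon, cholesterol, squamous and stress genes was called with the library labelled SI organoids 1 put back.

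Of 37 markers of mesenchyme, immune cells, endothelium and pancreatic acini, 4 (10.8%) were called, against 13.9% of all genes. Of 12 mesenchymal genes 1 was called, the intermediate filament gene Vim, at 4.76 and 5.0 in Sto organoids, against 7.71 and 7.69 in SI organoids. The summed signal of the mesenchymal list was 8.20 and 7.94 (log2) in Sto organoids, and 8.74 and 8.71 in SI organoids. Of 11 immune genes 2 were called, Cd68 (3.77-fold higher) and Lyz2 (18.3-fold lower), a close copy of Lyz1 whose probes may read the Paneth cell gene. The immune list summed to 9.40 and 9.77 in Sto organoids and to 9.09 and 9.27 in SI organoids. Of 8 endothelial genes 0 were called by limma, with a median difference of 0.05. Of 6 pancreatic acinar genes 1 was lower, the protease Ctrb1, and of 10 housekeeping genes 0 were called (median 0.10). Their part in the differences above was not tested.

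The contrast between stomach and intestine was then set against the same contrast in sorted SCs, control Sto SCs (n = 2) against control SI SCs (n = 3), which as far as the study states came from cultures in Sto medium. Cells in the 2 contrasts differ in sorting and in medium at once, and these cannot be told apart. In a fit over all 14 arrays (limma), the effect of origin differed for 854 genes (4.54%), being higher in organoids for 312 (1.66%) and lower for 542 (2.88%). With the library labelled SI organoids 1 put back, 159 genes differed, 69 higher and 90 lower. In SCs themselves 622 genes (3.3%) were called between stomach and intestine, 417 (2.22%) higher and 205 (1.09%) lower in control Sto SCs. Upward differences were found for 8 of 17 pit cell genes. Downward differences were found for 16 of 26 enteroendocrine, 10 of 17 hydrolase, 10 of 20 lipid absorption and 15 of 22 proliferation genes.

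Individual genes showed both patterns. Muc5ac differed by 8.57 between organoids and by 0.93 between SCs, a difference of 7.65 (SE 0.22, adjusted p = 5.12e-07 by limma). Shh differed by 5.78 between organoids and by 0.10 between SCs (difference 5.68, adjusted p = 2.58e-06). Sis differed by -9.12 between organoids and by -2.46 between SCs (difference -6.66, SE 0.42, adjusted p = 3.29e-05). For these 3 genes the difference by origin was larger in organoids. Cps1, by contrast, differed by -7.51 between organoids and by -6.97 between SCs, a difference of -0.53 (SE 0.60, adjusted p = 0.783). For Cldn18 the values were 8.23 and 5.32, with a difference of 2.91 (SE 0.94) that did not pass (adjusted p = 0.137). In the single arrays of organoids in Sto medium, 266 (18.7%) of the 1425 genes that were higher differed at least 2-fold the same way, against 3.26% of all genes, and 326 (27.5%) of the 1184 that were lower, against 3.29% of all genes.

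**Figure D5:**
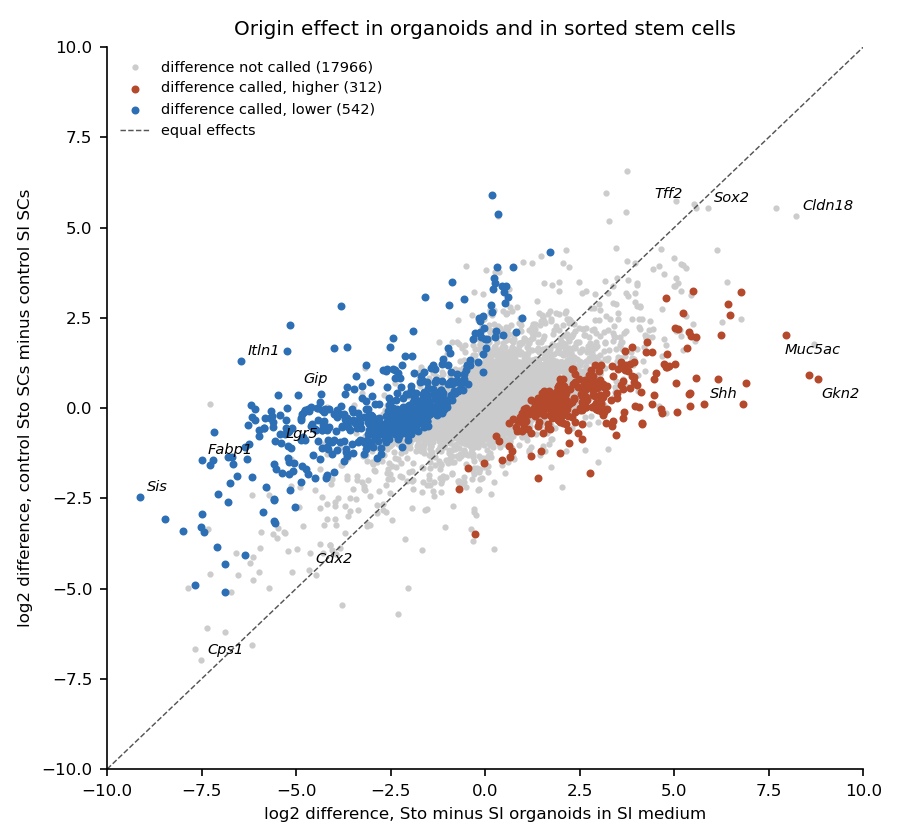
Log2 difference by origin in sorted SCs (control Sto SCs minus control SI SCs, vertical axis) against that in organoids in SI medium (Sto organoids minus SI organoids, horizontal axis), 1 point per gene. Coloured points are the 312 and 542 genes whose difference was called, and Cps1 lies near the line of equal effects, whereas Muc5ac, Shh and Sis lie far from it.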

How the data were processed

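RNA of 14 samples had been hybridised to Affymetrix Mouse Gene ST 1.1 arrays. The authors summarised the scans with RMA-sketch in Affymetrix Power Tools and deposited log2 values for 35556 probe sets, which were used as deposited. Each value column belonged to a named sample (0 unmatched). The arrays SI organoids 3 and control SI SCs 3 held log2 of rounded signals, of which 100% were whole multiples of 0.1 on the linear scale (tolerance 0.001 of a step), with upper quartiles of 7.57 and 7.5, against 7.79 to 7.90 elsewhere, so they were exported differently. Whether they were normalised with the others is not stated. Of the probe sets, 21218 had 1 gene in the platform annotation, 1881 several and 12457 none, and 21185 symbols were matched by Entrez ID to RefSeq (GRCm38.p6). Where a gene had several probe sets (1386 genes) that with the highest mean was kept, leaving 18820 genes. Arrays have no read depth, and their number limits the precision.

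Groups came from the labels. The comparison was fitted with limma 3.58.1 (R 4.3.3; lmFit and eBayes, 2-sided) on 2 against 2 arrays, with 2 residual and 4.01 prior degrees of freedom and Benjamini-Hochberg adjustment over all genes. An exact permutation test of 2 against 2 arrays cannot go below p = 0.333, so calls rest on the spread that limma shares between genes. Errors are SEs of a difference of means, and folds are 2 to the power of its size. Genes were described in 32 lists by counts and medians without Cdx2 and without a set test. Named were Cdx2, Lgr5, the markers of the study, the 12 largest rises and falls without overlap, up to 6 called members of a list in each direction, any member said not to be called, and the 8 largest differences from SCs in each direction. The members, lists and the array left out were chosen with earlier results of these data known. Alternatives were other arrays, normalisations, probe sets, filters, blocks and the methods' t-test. The steps were tested on simulated data. Promoters came from a RefSeq table of GRCm38.p6 and were searched in Python 3.11.15.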

Additional observations from a re-analysis of the deposited data

Results flagged for a closer look

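The origin effect (stomach minus intestine) differed between whole organoids in SI medium and sorted SCs for 854 genes by the test of the difference itself (limma, 14 arrays), higher in organoids for 312 and lower for 542. The contrasts share no array, but sorting and medium differ between them at once and cannot be told apart.

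The 8 largest upward differences were those of Gkn2 (7.99), Muc5ac (7.65), the proton pump subunit Atp6v0d2 (6.70), Mucl3 (6.2), Gkn1 (5.94), Shh (5.68), the squamous envelope protein Ivl (5.37) and Teddm3 (5.34), on the log2 scale. In SCs themselves these 8 genes differed by 0.07 (Teddm3) to 2.02 (Gkn1). The least certain was Mucl3 (SE 1.19, adjusted p = 0.0197), and the smallest adjusted p was that of Muc5ac (5.12e-07).

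The 8 largest downward differences were those of the lectin Itln1 (-7.75), the secreted lectin Reg1 (-7.45), the complement factor H-related gene Cfhr2 (-6.83), Sis (-6.66), the siderophore-binding lipocalin Lcn2 (-6.65), 2010106E10Rik (-6.50), Slc6a19 (-6.26) and Fabp1 (-6.07). For 5 of them the difference between SCs had the opposite sign, with Lcn2 at 2.83, Reg1 at 2.29, Cfhr2 at 1.58, Itln1 at 1.29 and Slc6a19 near 0 (0.08). Reg1 was at 4.67 and 9.55 in the Sto organoids, so that its difference had an SE of 1.79 (adjusted p = 0.0492). With the library labelled SI organoids 1 put back, Gkn2, Muc5ac, Atp6v0d2, Gkn1, Shh and Teddm3 were still called, and the other 10 genes were not.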

How the results depend on the processing

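Against 2609 genes called (1425 higher, 1184 lower), putting back the library labelled SI organoids 1 left 266 (99 and 167), and an additive fit with both Sto medium arrays 371 (147 and 224). The methods' t-test called 1789 (856 and 933) at its unadjusted threshold, and 1 (0 and 1) after Benjamini-Hochberg adjustment, against 5551 genes with an unadjusted p under 0.05 in limma. Leaving out 1 array gave 1188 to 2724 genes (543 to 1857 higher, 645 to 1076 lower), with the lowest count without SI organoids 3 (1188), and the lone array of a group was then assumed to vary like the other group. The remaining settings were within 1.5 times, and no gene called here was called the opposite way in any setting. Quantile normalisation gave 2541 genes, 46.3% of them higher, against 54.6%, with a median of all genes near 0 (-0.001). The origin effect differed from that in SCs for 854 genes, for 159 (69 and 90) with that library put back, and for 439 to 1079 (140 to 618 higher, 293 to 598 lower) leaving out 1 array. Upward differences numbered 472 after quantile normalisation and 479 with the export form as a block. The arrays numbered 2, the only number that both groups share, had deviations with r = -0.002. A single correlation cannot exclude that arrays were paired. A block on replicate number gave 2479 genes for the origin effect and 1318 (530 upward, 788 downward) for the difference.

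Among uncalled genes named above, the difference of Atp4b (0.0074) ran between -0.17 and 0.18 leaving out 1 array and was -0.093 after quantile normalisation and -0.10 after centring, that of Cblif was -0.26 with that library put back, and that of Col11a2 ran between -0.0017 and 0.43 leaving out 1 array. With 2 arrays a group, signal near background limits what can be called, and fewer than 4 arrays a group leave no test for a single outlying array.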

Other observations

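Arrays of 1 group differed from each other in number. Between SI organoids 3 and 2, 882 genes lay at least 2-fold apart, 170 higher and 712 lower on array 3 (median of all genes -0.20), and between Sto organoids 2 and 1 357 did, 259 higher and 98 lower on array 2 (median -0.03). Gastric genes were among those that parted the SI arrays, with Tff2 at 8.80 on array 2 and 5.78 on array 3, and Psca at 7.49 and 4.12.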
